A study of Homo sapiens with 6 samples.

Results

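The small leucine-rich proteoglycans (SLRPs) are secreted matrix proteins with a core of leucine-rich repeats, most of which carry sulfated sugar chains. The SLRP genes described here were chosen by symbol: BGN, DCN, ASPN, LUM, FMOD, PRELP, OMD, OGN and PODN. They are 9 of the 58735 genes in the count table, and 7 of them were among the 15341 genes with enough reads to be tested. RNA was measured by mRNA-seq in UE7T-9 cells, a human mesenchymal stem cell (MSC) line from bone marrow, and in a UE7T-9 line with SRRM4, a neuronal splicing regulator, targeted by CRISPR (SRRM4 KO), with 3 libraries in each group. The control libraries carry the genotype label wild type. The KO line is 1 clone, grown from single cells after lentiviral transduction with a Cas9 and gRNA vector and puromycin selection, and complete loss of the SRRM4 protein was not shown for it. The labels do not say whether the control cells carried a vector. Nothing in the labels says that the 3 libraries of a group came from separate cultures, so p-values measure the spread between these libraries, which may be technical.

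SLRPs bind to the surface of collagen fibrils and help to set fibril width and spacing. Several of them also bind growth factors such as TGF-beta and BMPs, and soluble biglycan and decorin act on cell surface receptors. In bone, tendon and cartilage they are made by the mesenchymal cells that lay down collagen, and biglycan is among the main proteoglycans of bone matrix. The comparison of the SRRM4 KO line with its control asks how the RNA of the KO line differs from that of the control cells. The SLRP genes show this for transcripts of proteins that sit on collagen. The KO line was also transduced, selected and cloned, and the comparison cannot separate SRRM4 targeting from these steps. Which of them had a part in the differences was not tested.

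Of the 7 tested SLRP genes, 6 fell in the SRRM4 KO line and 0 rose. A gene was called when the adjusted p of edgeR's quasi-likelihood test was under 0.05 and the log2 fold change lay beyond 1. By this rule 7.14% of all 15341 tested genes were lower and 5.45% higher. FMOD, BGN and PRELP had log2 fold changes below -5, DCN stood at -3.36, PODN at -2.04 and ASPN at -1.48. LUM had a log2 fold change of -0.86 and did not reach the fold threshold, and in the KO line it was by far the most abundant SLRP transcript. The median log2 fold change was -3.36 over the 7 tested SLRP genes and -0.01 over all tested genes. Since these are bulk samples, fewer cells that express a gene and less RNA per cell cannot be told apart.

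The promoters of 4 of the genes that fell are shown because they differ widely in base composition. They were taken from RefSeq (GRCh38.p14) and hold the 250 bases before the RefSeq start, written 5′ to 3′ on the strand of the gene. Of the 4 windows, that of ASPN ends at the outermost start of the gene in GENCODE, and the others end elsewhere. RefSeq promoters were matched for 6 of the 9 genes. LUM, DCN and OMD had no entry. Capitals mark matches, on either strand, to any of 6 motifs. These were the TATA box (TATAAA), the GC box (GGGCGG), the CCAAT box (CCAAT) and the core motifs of AP-1 (TGANTCA), RUNX (TGTGGT) and TEAD (GGAATG).
BGN, chrX:153494730-153494979, plus strand: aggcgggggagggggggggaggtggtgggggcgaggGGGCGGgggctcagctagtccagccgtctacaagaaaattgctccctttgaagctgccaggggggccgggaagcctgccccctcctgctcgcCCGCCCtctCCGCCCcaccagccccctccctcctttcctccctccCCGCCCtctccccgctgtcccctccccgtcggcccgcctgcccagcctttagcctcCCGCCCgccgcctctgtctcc
FMOD, chr1:203351123-203351372, minus strand: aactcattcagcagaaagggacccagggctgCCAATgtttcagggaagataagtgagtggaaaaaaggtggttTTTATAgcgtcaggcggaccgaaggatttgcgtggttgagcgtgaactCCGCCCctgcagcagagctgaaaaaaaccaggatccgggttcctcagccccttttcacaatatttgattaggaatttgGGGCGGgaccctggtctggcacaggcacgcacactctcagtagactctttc
PRELP, chr1:203475556-203475805, plus strand: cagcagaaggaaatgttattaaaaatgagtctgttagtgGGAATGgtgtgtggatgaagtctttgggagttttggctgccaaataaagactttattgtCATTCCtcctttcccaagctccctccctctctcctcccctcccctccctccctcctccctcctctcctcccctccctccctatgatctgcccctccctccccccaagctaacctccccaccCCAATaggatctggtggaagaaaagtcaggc
ASPN, chr9:92482507-92482756, minus strand: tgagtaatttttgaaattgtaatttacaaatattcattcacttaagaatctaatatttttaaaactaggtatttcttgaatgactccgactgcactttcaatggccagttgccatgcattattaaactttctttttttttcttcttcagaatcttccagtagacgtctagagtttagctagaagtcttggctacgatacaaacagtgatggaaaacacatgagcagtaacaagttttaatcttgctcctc

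The BGN window is 74.0% GC and holds 5 GC boxes, a motif found in 42.6% of the 35116 RefSeq promoters of the same length. The FMOD window is 51.6% GC and holds 2 GC boxes, 1 TATA box and 1 CCAAT box. TATA boxes occur in 10.7% and CCAAT boxes in 32.0% of all promoters. The PRELP window is 52.8% GC, with 1 CCAAT box and 2 TEAD motifs, which 11.9% of promoters contain. The ASPN window is 32.4% GC, against a median of 58.0% over all promoters, and none of the 6 motifs was found in it. PODN, whose promoter is 72.4% GC, holds 2 GC boxes. The AP-1 motif is present in 6.57% of all promoters and the RUNX motif in 3855 of 35116, and neither was found in these windows. These matches describe the letters only, and whether base composition or motifs bear on the RNA changes was not tested.

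The 6 libraries held between 21496117 and 23868323 counts, so that 3 counts, the limit that a count of 0 allows, correspond to 0.123 to 0.139 CPM (counts scaled to library size). This limit allows for counting error alone. SRRM4 itself had 0 counts in every library, control libraries included, and the counts therefore give no check of the knockout. The counts of control replicate 1 were unlike those of control replicates 2 and 3, with a chi-square per degree of freedom of 23.0 and 23.5, where replicates 2 and 3 gave 5.63 between them. In the KO group, replicate 3 gave 9.73 and 9.11 against replicates 1 and 2, which gave 5.06 between them. Values without control replicate 1 are given for each tested SLRP gene. The MSC label was checked with 7 mesenchymal markers, all of them detected. Their sum, nearly all of it COL1A1 and COL1A2, was 40049 to 44227 CPM in control and 16444 to 18456 CPM in KO. COL1A1, COL1A2, THY1 and PDGFRB fell, while NT5E (log2 fold change 0.52), VIM (0.36) and ENG (-0.34) passed the adjusted p and not the fold threshold. Markers of blood, epithelial and fat cells were low. In control and KO, haematopoietic genes summed to 4.27 to 5.15 and 3.23 to 4.04 CPM (PTPRC at 2 counts or fewer, CD3E at 0, and the 1 tested gene, which held most of the sum, at a log2 fold change of -0.02), epithelial genes to 1.20 to 2.60 and 0.404 to 0.727 CPM (EPCAM at 2 counts or fewer), and adipocyte genes to 0.369 to 1.16 and 0.370 to 0.863 CPM (ADIPOQ at 0). Endothelial markers summed to 13.8 to 16.0 CPM in control and 1.56 to 2.56 CPM in KO, a difference carried by TEK (276, 288 and 336 counts against 34, 10 and 23), with VWF not called (-0.35) and PECAM1 and CDH5 at 3 counts or fewer. Chondrocyte markers, in control mostly ACAN, summed to 146 to 163 CPM in control and 5.18 to 5.54 CPM in KO, with COL9A1 at 0. Apart from the adipocyte genes, each of these sums was lower in every KO library than in any control library, and so was the share of mitochondrial counts (1.16 to 1.57% in control, 0.800 to 1.11% in KO). Their part in the SLRP results was not tested.

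Biglycan, decorin and asporin form class I of the family. BGN (ENSG00000182492), which encodes biglycan, is found at 153494939 to 153509554 of chromosome X, plus strand, in GRCh38 as annotated by GENCODE release 29, and its principal transcript has 8 exons. Its level was 589.5, 610.1 and 622.8 CPM in control replicates 1 to 3 and 18.5, 13.8 and 12.3 CPM in the KO replicates. The groups were far apart, and in every KO library BGN stood at a small fraction of the lowest control library. The KO mean of 14.8 ± 3.25 CPM (SD, n = 3) was 2.44% of the control mean of 607 ± 16.8 CPM. The log2 fold change was -5.36 ± 0.13 (SE, adjusted p = 5.43e-13) and -5.38 without control replicate 1. BGN overlaps HAUS7 on the opposite strand, but the exons of the 2 genes share 0 bases.

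DCN (ENSG00000011465) encodes decorin, a close relative of biglycan that decorates collagen I fibrils. It lies on the minus strand of chromosome 12 from 91140484 to 91183123. It was read at 432, 359 and 372 CPM in control and at 36.9, 39.0 and 36.9 CPM in the KO libraries. The KO libraries lay close together and well under all control libraries. DCN fell by 3.36 ± 0.095 on the log2 scale (SE, adjusted p = 2.13e-12), to 9.70% of the control mean, and without control replicate 1 the log2 fold change was -3.28.

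ASPN (ENSG00000106819) encodes asporin, a class I member with a stretch of aspartates in place of the sugar chain sites, known as a regulator of TGF-beta and of mineralization. Its position is chromosome 9 from 92456205 to 92482506, minus strand, within CENPP on the opposite strand, with 0 exon bases shared. The control libraries had 2142, 1663 and 1737 counts and the KO libraries 668, 741 and 674. Control replicate 1 was the highest, the groups did not overlap, and the KO libraries were almost equal. In CPM the means were 84.6 ± 12.3 in control and 30.3 ± 0.329 in KO (SD, n = 3). The log2 fold change was -1.48 ± 0.11 (SE, adjusted p = 5.27e-08), or -1.35 without control replicate 1. The KO mean was 35.9% of the control mean, so the 3 class I transcripts were left at very different shares of their control level.

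**Figure D1:**
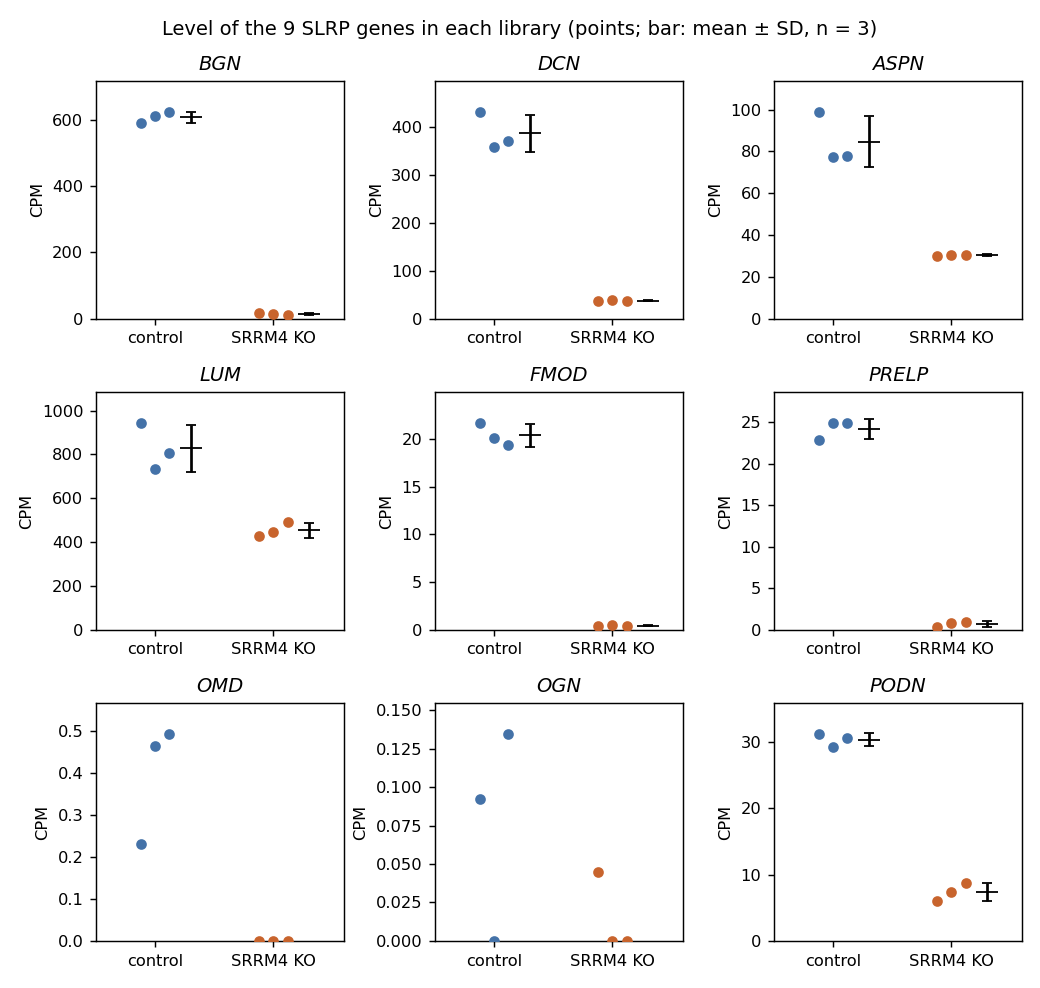
Level of each of the 9 SLRP genes in CPM (y axis, scaled separately for each gene) in the 3 control and 3 SRRM4 KO libraries; points are libraries, and bars give the mean and SD for the 7 tested genes. The KO points lie under every control point for all genes but OGN, and LUM keeps the largest share of its control level, at 55.0%.

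Lumican, fibromodulin, PRELP and osteomodulin belong to class II, whose members can carry keratan sulfate and bind collagen fibrils through sites of their own. LUM (ENSG00000139329, lumican) neighbours DCN on chromosome 12, from 91102629 to 91111831 on the minus strand, 28653 bases away. It was the SLRP gene with the most reads, at 943, 731 and 808 CPM in control and 427, 445 and 493 CPM in the KO libraries. The groups did not overlap, and control replicate 1 was again the highest. The KO mean of 455 ± 34.4 CPM was 55.0% of the control mean of 827 ± 107 CPM (SD, n = 3). With a log2 fold change of -0.86 ± 0.092 (SE), LUM passed the adjusted p (2.37e-06) but not the fold threshold. Of all tested genes, 20.9% passed the adjusted p on the lower side. Without control replicate 1 the value was -0.76.

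FMOD (ENSG00000122176) encodes fibromodulin, which binds collagen I and takes part in fibril assembly and cross-linking. It lies on chromosome 1 from 203340628 to 203351758, on the minus strand. It had 469, 433 and 431 counts in control and 9, 11 and 8 counts in the KO libraries. These few KO counts were above the limit of 3 counts in each library, so that a low level was still read. In CPM the control mean was 20.3 ± 1.18 and the KO mean 0.406 ± 0.0441 (SD, n = 3), a 50.1-fold difference. Its log2 fold change of -5.62 ± 0.21 (SE, adjusted p = 3.82e-11) was the lowest of the 7 and ranked 72nd from the lowest of 15341 genes, and it was -5.58 without control replicate 1.

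PRELP (ENSG00000188783), the proline- and arginine-rich member that also binds heparan sulfate of basement membranes, lies 124070 bases from FMOD on chromosome 1, from 203475828 to 203491352 on the plus strand. It had 496, 537 and 556 counts in control and 7, 20 and 21 counts in the KO libraries. KO replicate 1 was the lowest, and all KO libraries were far under the control libraries. PRELP fell by 5.11 ± 0.24 on the log2 scale (SE, adjusted p = 3.76e-10), from 24.2 ± 1.18 to 0.697 ± 0.338 CPM (SD, n = 3). The value was -5.15 without control replicate 1 and between -5.39 and -4.77 over the fits that left out each library in turn.

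OMD (ENSG00000127083) encodes osteomodulin, or osteoadherin, a keratan sulfate proteoglycan of bone matrix that binds osteoblasts. It lies on chromosome 9 from 92414245 to 92424461, minus strand. It had 5, 10 and 11 counts in control and 0 in all KO libraries, and it was left out of the test by the filter on low counts. Against the limit of 3 counts in each library, OMD was at least 3.01-fold lower in the KO line. Where the filter was left out, OMD was tested and called lower (adjusted p = 0.00516). OGN (ENSG00000106809), the class III member osteoglycin or mimecan, lies next to it from 92383967 to 92404696. Its counts of 2, 0 and 3 in control and 1, 0 and 0 in KO were at or under the limit in every library, and no fold change is given.

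PODN (ENSG00000174348) encodes podocan, a class V member that binds collagen I. Its position is 53062052 to 53085502 of chromosome 1, plus strand, far from FMOD and PRELP. It was at 31.2, 29.3 and 30.7 CPM in control and at 6.01, 7.43 and 8.68 CPM in KO. The control libraries were close to each other, and the groups did not overlap. PODN fell to 24.3% of its control mean, with a log2 fold change of -2.04 ± 0.15 (SE, adjusted p = 3.59e-08) and -2.02 without control replicate 1. Of its exon bases, 747 are shared with an antisense gene and a pseudogene on the other strand, and without strand information their reads cannot be told apart.

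Over the family, the control and KO libraries did not overlap for any of the 7 tested genes, all of them lower in KO, nor for OMD, which was not tested. Among all tested genes 25.9% were lower without overlap. All 6 calls held without control replicate 1. The changes themselves differed far beyond their errors, from -5.62 for FMOD to -0.86 for LUM. FMOD, BGN and PRELP lay close together, with errors of 0.13 to 0.24, followed at wider steps by DCN, PODN, ASPN and LUM. Members of 1 class did not move by like amounts: class I ranged from -5.36 to -1.48 and class II from -5.62 to -0.86.

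**Figure D2:**
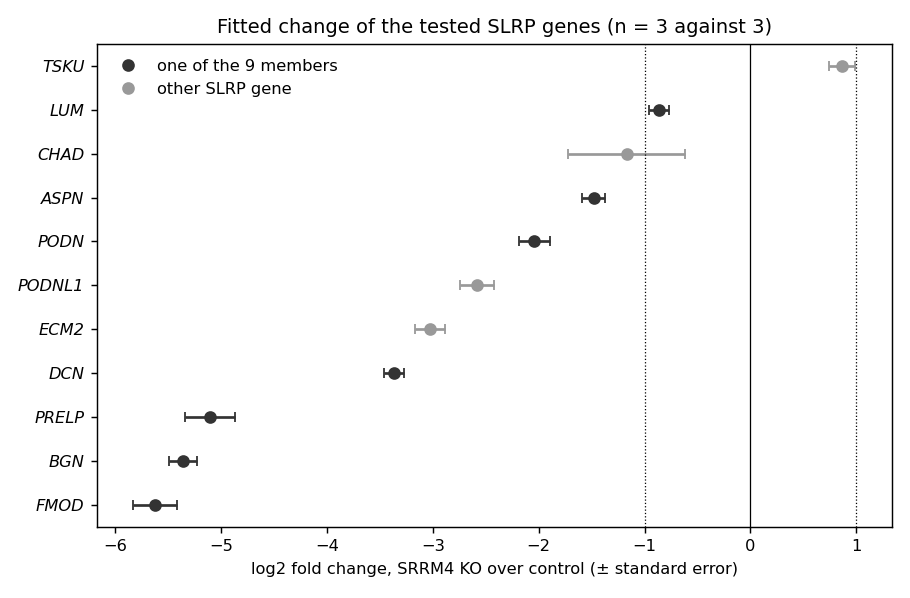
Log2 fold change of SRRM4 KO over control (x axis) with its standard error for the 7 tested SLRP genes (dark) and 4 other tested SLRP genes (grey), from 3 against 3 libraries; dotted lines mark the fold threshold of 1. FMOD, BGN and PRELP lie between -5.62 and -5.11, LUM at -0.86, and TSKU is the 1 gene on the positive side, at 0.86.

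To compare levels between SLRP genes, CPM was divided by gene length in kilobases as given in the count table. In control cells LUM (275 ± 35.6 CPM per kb, SD, n = 3) and BGN (248 ± 6.84) stood at the top, and their ranges overlapped. ASPN (34.2 ± 4.98) and DCN (30.2 ± 3.02) followed, again with overlapping ranges. PODN (6.20 ± 0.202) and FMOD (5.98 ± 0.347) overlapped as well on this scale, with PRELP at 4.22 ± 0.205 and OMD at 0.162. In the KO line the order was LUM (151 ± 11.4), ASPN (12.3 ± 0.133), BGN (6.05 ± 1.33), DCN (2.93 ± 0.0948) and PODN (1.51 ± 0.272), then PRELP (0.121 ± 0.0588) and FMOD (0.119 ± 0.0130), whose ranges overlapped, while OMD and OGN were at or under the limit of 3 counts. BGN thus went from a level like that of LUM to one below ASPN. The length of DCN in the table counts all exons of 20 annotated transcripts, 12847 bases, while its principal transcript has 7156. With principal transcript lengths DCN stood above ASPN in control, at 54.1 ± 5.42 CPM per kb, and its KO level of 5.25 ± 0.170 overlapped the range of BGN. On that scale PODN (10.1 ± 0.329) and FMOD (6.15 ± 0.357) no longer overlapped in control.

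The summed level of the 9 genes was 644, 567 and 599 CPM per kb in the control libraries and 166, 171 and 186 in the KO libraries. The KO mean was 28.9% of the control mean (exact two-sided permutation test, p = 0.1, the smallest p that 3 against 3 libraries allow). In control BGN made up 37.3, 43.8 and 42.4% of this sum and LUM 48.7, 42.9 and 44.8%. In the KO libraries BGN made up 4.55, 3.28 and 2.68% and LUM 85.5, 86.7 and 88.0%. What had been a mixture led by biglycan and lumican transcripts was mostly lumican in the KO libraries, without overlap between groups for either gene (exact permutation test, p = 0.1 for each). DCN fell from 4.99 ± 0.201% to 1.68 ± 0.127% of the sum, or from 8.49 ± 0.336% to 2.97 ± 0.221% with principal transcript lengths, and ASPN went from 5.66 ± 0.495% to 7.06 ± 0.357% (SD, n = 3, exact permutation test, p = 0.1 for each). As shares of 1 sum, these values are not independent of each other.

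Ratios between pairs of SLRP transcripts shifted in the same manner. The log2 ratio of BGN to DCN per kilobase was 3.04 ± 0.176 in control and 1.03 ± 0.319 in KO (SD, n = 3). The log2 ratio of LUM to DCN, which are neighbours on chromosome 12, was 3.19 ± 0.0551 in control and 5.69 ± 0.128 in KO. That of FMOD to LUM, which compete for a binding region on collagen I, was -5.52 ± 0.136 and -10.31 ± 0.243. In each ratio the 2 groups did not overlap, and each exact two-sided permutation test gave p = 0.1, the smallest possible. Gene length cancels in the differences between groups.

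**Figure D3:**
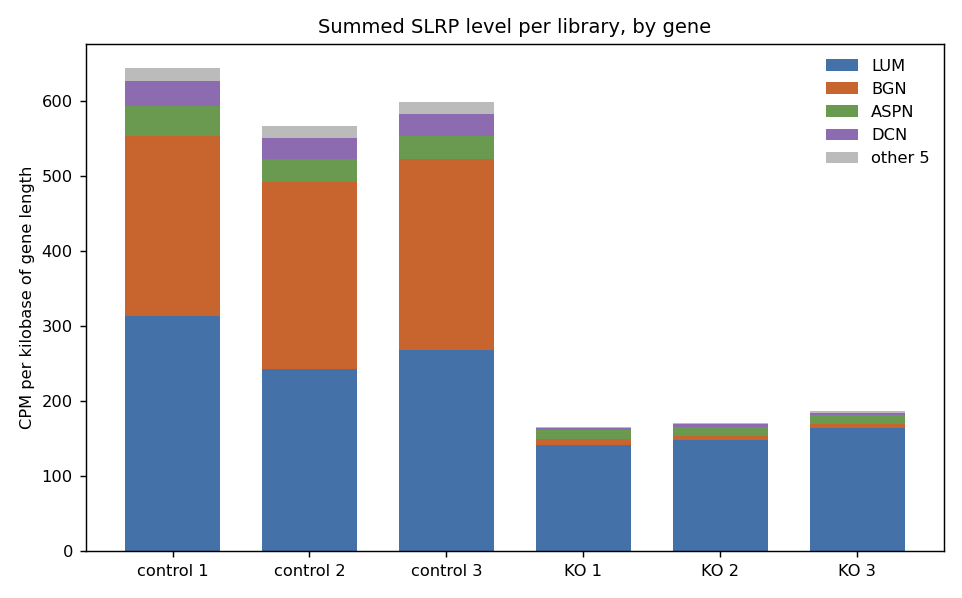
Summed level of the 9 SLRP genes in CPM per kb of gene length (y axis) in each of the 6 libraries, stacked by gene. The bars reach 567 to 644 in control and 166 to 186 in KO, where LUM takes 85.5% or more of the bar.

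Of 9 further genes of the wider SLRP family, 4 were tested, and 2 of them fell. ECM2, which encodes a matrix protein with leucine-rich repeats and lies 11048 bases from ASPN, had 2268, 1723 and 1878 counts in control and 236, 227 and 288 in KO, a fall of 3.03 ± 0.14 on the log2 scale (SE, adjusted p = 3.69e-10). PODNL1, the podocan-like gene, had 450, 489 and 584 counts in control and 81, 109 and 76 in KO, a fall of 2.59 ± 0.16 (SE, adjusted p = 8.60e-09). The groups did not overlap for either gene. TSKU, the class IV gene tsukushi, which binds BMPs and Wnt-related factors, had higher counts in KO (484, 606 and 577 against 1136, 1163 and 881). Its log2 fold change of 0.86 passed the adjusted p (4.20e-05) and not the fold threshold. CHAD (chondroadherin) had 17, 27 and 25 counts in control and 16, 12 and 4 in KO and did not pass (log2 fold change -1.17 ± 0.55 SE, adjusted p = 0.104). CHADL was not tested, and its counts were 8, 27 and 18 in control and 4, 1 and 0 in KO. KERA and NYX had 0 counts in every library, and EPYC and OPTC at most 4.

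Several SLRP genes lie in clusters, so the genes around them were examined. ASPN, OMD, OGN and ECM2 are neighbours on chromosome 9, DCN and LUM on chromosome 12, and FMOD and PRELP on chromosome 1. Within 250000 bases of a SLRP gene, 24 protein-coding genes outside the family were tested and are reported. Of these, 5 were lower, 3 higher and 16 not called, with a median log2 fold change of -0.04. Among all tested genes 7.14% were lower and 5.45% higher. Around DCN and LUM no tested gene outside the family lay in this window. CENPP, within which ASPN, OMD and OGN lie on the opposite strand, had a log2 fold change of 0.34 and was not called. HAUS7, which overlaps BGN, had 71, 53 and 53 counts in control and 4, 24 and 5 in KO (log2 fold change -2.50, adjusted p = 0.00141, and -3.70 without KO replicate 2), while SLC6A8, 178545 bases from BGN, rose from 26.7 to 142 CPM (2.41). The other genes called lower were TREX2 (-2.14), IARS (-1.07), CHI3L1 (at least 9.84-fold lower, its control counts being 34, 16 and 35 and its KO counts 2, 0 and 0) and ATP2B4 (-1.02), and the other higher genes were PNCK (2.30) and LRP8 (1.44). The genes not called lay between -0.87 (ECHDC2, called without KO replicate 1 at -1.10) and 0.85 (ADORA1). The calls of IARS and ATP2B4 were lost without control replicate 1, at -0.99 and -0.98. The call of TREX2 was lost without control replicate 2 (adjusted p = 0.150), KO replicate 1 (0.0896) or KO replicate 2 (0.0588), and that of PNCK without control replicate 2 (0.0536) or KO replicate 2 (0.0549). Without control replicate 3 the value of PNCK was 3.45. Genes of chromosome X had a median log2 fold change of 0.32 and those of chromosome 9 of -0.24, against 0.04 and -0.05 for chromosomes 1 and 12. Whether chromosome or gene position had a part in the SLRP changes was not tested.

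**Figure D4:**
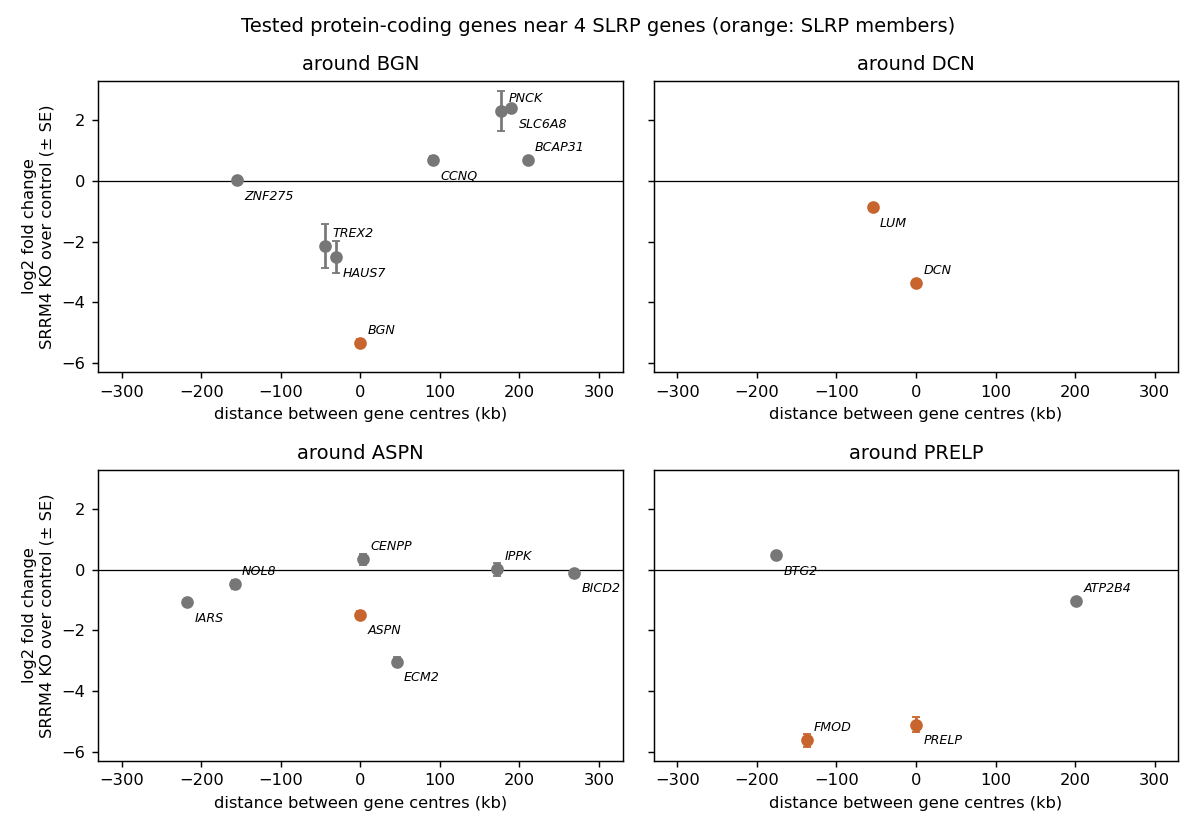
Log2 fold change with its standard error (y axis) of tested protein-coding genes within 250000 bases of BGN, DCN, ASPN and PRELP, by distance between gene centres in kb (x axis); SLRP genes are orange. BGN at -5.36 lies between neighbours of both signs, FMOD and PRELP lie together below -5, and DCN and LUM differ by 2.50 on the log2 scale.

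The proteins that build, hold and cut SLRPs were followed in 6 lists. Genes that make the linker and the chondroitin or dermatan sulfate chains of biglycan and decorin showed little common change, with 3 of 21 tested genes lower and 1 higher and a median log2 fold change of -0.11. XYLT1, a xylosyltransferase that starts the chain, fell from 59.1 ± 2.23 to 24.1 ± 3.51 CPM (SD, n = 3, log2 fold change -1.29), while XYLT2, the other gene for this step, was at 33.7 ± 4.88 and 68.9 ± 6.79 CPM (1.03). The call of XYLT2 rested on single libraries, with 0.92 without control replicate 1 and 0.95 without KO replicate 1. CHSY3 (-1.42) and CHPF (-1.21), which act in chain extension, fell, although CHPF was at -0.97, under the threshold, after the median of its chromosome was subtracted. Of the keratan sulfate enzymes, which serve lumican and fibromodulin, 3 of 7 were tested. All 3 had positive log2 fold changes, with a median of 0.78, and 1 was called higher. This was CHST6, a corneal keratan sulfate sulfotransferase (counts of 6, 2 and 1 in control against 42, 22 and 48 in KO, log2 fold change 3.53 ± 0.65 SE, adjusted p = 0.000477, and 4.48 without control replicate 1).

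The tested genes for collagens that SLRPs bind moved in 1 direction. All 12 tested genes of 13 had negative log2 fold changes, 8 were called lower and 0 higher, and the median was -1.36. Of all 15341 tested genes, 7744 had negative values. COL1A1 fell by 1.23, COL1A2 by 1.70 and COL3A1 by 1.48 on the log2 scale, and COL5A1 was at -1.05, or -0.98 and not called without KO replicate 3. The others called were COL6A3 (-1.90), COL5A3 (-2.60), COL11A1 (-3.18) and COL14A1 (-3.32), so that the called collagens spanned the values of ASPN, PODN and nearly that of DCN, but not those of FMOD, BGN and PRELP. The difference between the collagens and the SLRP genes was not tested.

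Among proteases that process or cleave SLRPs, listed together with the protease enhancers PCOLCE and PCOLCE2, 3 of 12 tested genes were lower and 1 higher, with a median of -0.38. PCOLCE, an enhancer of the procollagen protease BMP1, fell from 157 to 15.7 CPM (log2 fold change -3.32 ± 0.098 SE). HTRA1, a serine protease that cleaves biglycan, decorin and fibromodulin, fell from 762 ± 40.1 to 176 ± 9.81 CPM (-2.11). TLL2, a relative of BMP1, fell by 1.80 (adjusted p = 0.148 with glmTreat), while BMP1, which removes the propeptide of biglycan, had a value of -0.36, short of the fold threshold. MMP3 was higher (2.62, adjusted p = 0.0209) on few reads (counts of 0, 1 and 7 in control against 28, 13 and 12 in KO), and its adjusted p was 0.0664 without control replicate 1, 0.0866 without control replicate 2 and 0.126 without KO replicate 1. Its log2 fold change ran from 2.06 to 4.77, the latter without control replicate 3.

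Of 13 tested receptors that respond to biglycan, decorin or lumican, 2 were lower and 2 higher, with a median of -0.07. ERBB4 (-2.16) and KDR (-1.60) fell, and CD44 (1.39) and ITGA2 (1.33), the collagen-binding integrin subunit, rose. In a test against the fold threshold itself (edgeR's glmTreat) the adjusted p of ITGA2 was 0.0672. TLR4, a receptor for soluble biglycan, had a value of 0.22 and was not called, and TLR2 had 0 counts in all libraries. Of 6 growth factors bound by SLRPs, only WISP1, a matricellular ligand known to bind decorin and biglycan, was called (-3.15), from 335, 427 and 292 counts in control against 63, 38 and 23 in KO. TGFB1 was at 200.3 CPM in control and 199 CPM in KO (-0.01), and TGFB2 at 212 and 204 CPM (-0.06). BMP4 (-0.74, adjusted p = 1.43e-05) and TGFB3 (-0.49, adjusted p = 0.0393) passed the adjusted p and not the fold threshold, and BMP2 (0.78) passed neither.

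Genes with a profile across the 6 libraries most like that of BGN were looked up among 9501 candidates, all tested, coding for proteins and averaging 10 CPM or more. The measure was the root mean square difference of log2(CPM + 0.5), centred on the control mean. The nearest were TMEM130 (0.161), ANO5 (0.169) and ELN (0.190), the last encoding elastin. TMEM130 was at 177 CPM in control and 3.88 CPM in KO, ANO5 at 21.7 and 0.0889 CPM, and ELN at 20.9 CPM in control and 0 counts in KO. The mean KO levels of ANO5 and ELN were below the limit of 3 counts, so their distance from BGN rests on the 0.5 CPM added.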

How the data were processed

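RNA of UE7T-9 control cells and UE7T-9 SRRM4 KO cells was measured by non-stranded mRNA-seq, 3 libraries each, grouped by title and genotype label. The authors deposited raw counts per gene, without normalization, for 58735 genes. The submitters' processing notes name HISAT2 2.0.5, featureCounts 1.5.0-p3 and DESeq2. The genome build is not given in the sources used here. Checked against GENCODE release 29 (GRCh38), all 58735 IDs matched, 58724 with identical coordinates. The handling of reads that fit more than 1 gene is not known.

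Counts were tested in R 4.3.3 with edgeR 4.0.16 (TMM, filterByExpr, prior count 0.125, quasi-likelihood test), with group as the sole term and p-values adjusted by Benjamini-Hochberg over the 15341 genes tested. Standard errors were derived from the estimate and its F. CPM uses TMM-scaled library sizes. Single values per library were compared by exact two-sided permutation tests. Folds against groups at 0 use 3 counts per library as a lower bound. Replicates differed by more than sampling noise, and each library counts as 1 sample. The procedures were tested on simulated counts.

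The SLRP genes, the lists and the tests were chosen with earlier results of these data known. Named are the SLRP genes, SRRM4, other SLRP genes with at least 10 counts in 1 library, the called genes of each list (at most 4 per direction by mean CPM), tested protein-coding genes within 250000 bases of a SLRP gene, markers that define a cell type, and the 3 genes most like the called SLRP gene of highest mean CPM. Named beyond this rule, after their values were seen, were BMP1, TLR4, TLR2, PCOLCE2, TGFB1, TGFB2, TGFB3, BMP2, BMP4, COL5A3, COL6A3, COL11A1, COL14A1, TEK, VWF, NT5E, VIM, ENG and the SLRP genes with almost no reads. Most neighbours that were not called are given as counts, and some items within the rule are left out of the text.

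Alternatives were DESeq2 size factors, upper-quartile factors, leaving out the filter, a minimum of 10 counts per library, replicate number as a block, DESeq2 1.42.0, a test against the fold threshold (glmTreat), no fold threshold, protein-coding genes only, and each library left out in turn. Principal transcript lengths and centring on the chromosome median were added after the data were seen.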

Additional observations from a re-analysis of the deposited data

How the results depend on the processing

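The fitted SLRP changes kept their direction in all 110 values from 16 alternative fits (FMOD and PRELP were not tested with at least 10 counts in every library), and 109 kept their side of the threshold. The exception was LUM, called lower at -0.86 with no fold threshold. The number of SLRP genes called lower was 6, and 4 of 5 tested with at least 10 counts in every library. It was 7 with no filter and under DESeq2, where OMD was added, and 7 with no fold threshold, where LUM was added. With 1 library left out it was between 6 and 7, and OMD was added without KO replicate 1 or KO replicate 3. Of all genes, 1029 to 1162 were lower with 1 library left out. Over all genes 3213 were lower and 3171 higher with no fold threshold and 577 and 360 under glmTreat. Of the pathway genes, 17 were lower and 5 higher, and these counts were 33 and 11 with no fold threshold, while 2 were higher under glmTreat and 3 with at least 10 counts in every library. With 1 library left out they were 16 to 17 lower and 3 to 5 higher, with 3 without control replicate 1 and without KO replicate 1. No clear pairing by replicate number was seen. The deviations of same-numbered libraries correlated at -0.0862, 0.109 and -0.102, and not every library correlated best with its own number. With 3 libraries in each group, these correlations cannot show whether libraries were handled in pairs. With the replicate block 6 SLRP genes, 1093 of all genes and 17 pathway genes were lower. The log2 ratio of the summed SLRP level (-1.79) was -1.84 to -1.74 with 1 library left out. Among 791 values of 50 other named genes, 27 lost a call and 9 gained one. Under glmTreat ATP2B4, COL5A1, IARS, ITGA2, MMP3, PNCK, TLL2, TREX2 and XYLT2 were not called, after centring by chromosome CHPF (-0.97), COL5A1 (-0.81), IARS (-0.83) and XYLT2 (0.82) were not, with upper-quartile factors XYLT2 was just under the threshold, and the other losses came with 1 library left out. All gains came with no fold threshold but that of ECHDC2 without KO replicate 1 (-1.10). Of these genes, 3 uncalled neighbours with values near 0 changed sign: ZNF275 (0.03) at -0.0017 with upper-quartile factors, -0.29 after centring by chromosome and from -0.036 to 0.084 with 1 library left out, IPPK (0.02) at -0.0085 with upper-quartile factors and -0.16 to 0.21 with 1 library left out and BICD2 (-0.09) at 0.15 after centring. The cause of these shifts was not tested. At this depth OMD and OGN were too thinly read for the filter, and a change in OGN was not detectable.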
